A study of Mus musculus with 6 samples.

Results

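The Zscan4 and Usp17l genes are 2 multicopy families of mouse chromosome 7 that mark the 2-cell-like state of embryonic stem cells. The 10 genes described here are the rows of the count tables whose symbol starts with Zscan4 or Usp17l and which held at least 10 counts over the 6 libraries, out of 24984 genes. They are 5 Zscan4 copies (Zscan4a, Zscan4b, Zscan4c, Zscan4d and Zscan4f) and 5 Usp17l copies (Usp17la, Usp17lb, Usp17lc, Usp17ld and Usp17le). No row of either family fell below that minimum, and the lowest member, Usp17ld, held 30 counts. The members were chosen by symbol and total count, and they were taken up with their high level in D395A already known, so their levels in D395A are given as a description without a p-value.

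RNA was measured in E14TG2a, a mouse embryonic stem cell line, grown in the serum-free medium N2B27. The groups have 2 libraries each. D395A is a line in which CRISPR/Cas9 integration placed the D395A substitution into METTL3, KO is a line in which CRISPR/Cas9 disrupted METTL3, and WT is the unmodified line. METTL3 carries the methyltransferase activity behind N6-methyladenosine (m6A), the commonest internal mark of messenger RNA. The study asks about m6A and circular RNA. The labels name 1 line per genotype and no separate clones or cultures, so genotype and history of a line cannot be told apart, and a p-value reflects no more than how the libraries of a group varied, which may be technical.

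ZSCAN4 proteins carry a SCAN domain and zinc fingers. In the mouse they are made in the late 2-cell embryo, and in cultured embryonic stem cells they appear in short bursts in a small minority of cells, where they act on telomere length and genome stability. The Usp17l genes, also called Dub genes, encode deubiquitinating enzymes. Usp17la (Dub1) and Usp17lc (Dub2) were first known in mouse blood cells as genes induced by cytokines. In stem cells, transcripts of both families belong to the set that comes up when cells pass through the 2-cell-like state, a set driven by the transcription factor DUX.

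Gene counts were between 22859491 and 40476809 per library. Levels are in CPM, each gene's count relative to the TMM-scaled total of its library, so that 1 count equals between 0.0246 CPM in the deepest library and 0.0426 CPM in the shallowest. The targeted gene Mettl3 stood at 7.82 and 6.17 CPM in the KO libraries, against 28.5 and 31.6 CPM in WT, and at 21.1 and 23.4 CPM in D395A, where the gene carries a substitution and its level checks no label. The 8 embryonic stem cell markers were present in every group, with summed levels of 1947 to 2014 CPM in D395A, 4480 to 4492 CPM in KO, against 3885 to 3942 CPM in WT. None of the 8 markers of any other cell type read here was at 0 in all libraries. Those of primitive endoderm summed to 26.6 to 28.0 CPM in D395A, 5.80 to 7.06 CPM in KO, against 10.7 to 11.3 CPM in WT. Trophoblast markers summed to 68.0 to 71.2 CPM in D395A, 53.8 to 54.9 CPM in KO, against 62.9 to 64.5 CPM in WT. Neural markers summed to 37.7 to 48.0 CPM in D395A, 40.4 to 43.1 CPM in KO, against 38.1 to 39.5 CPM in WT. Fibroblast markers summed to 3.47 to 5.88 CPM in D395A, 7.39 to 8.41 CPM in KO and 5.95 CPM in both WT libraries. In D395A against WT, 4 of 5 tested neural markers passed as higher and 1 as lower, 3 of 5 fibroblast markers as higher and 2 as lower, 4 of 6 trophoblast markers as higher and 1 as lower, and 1 of 5 primitive endoderm markers as higher and 2 as lower. In KO against WT, 0 of 5 neural markers passed as higher and 1 as lower, 1 of 5 fibroblast markers as higher and 1 as lower, 1 of 6 trophoblast markers as higher and 1 as lower, and 1 of 5 primitive endoderm markers as higher and 2 as lower. Of the 8 stem cell markers, 0 were higher and 7 lower in D395A, and 3 higher and 3 lower in KO. The part of these differences in the results below was not tested.

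Copies of a family share most of their sequence, so the sums come first. The 5 Zscan4 copies together held 50.9 and 44.7 CPM in the D395A libraries, 2.79 and 3.57 CPM in the KO libraries, and 3.12 and 3.67 CPM in the WT libraries. Both D395A libraries were far above the other 4, and KO and WT overlapped. The sum averaged 47.8 ± 4.37 CPM in D395A and 3.39 ± 0.384 CPM in WT (SD, n = 2 each), a log2 fold change of 3.81 ± 0.12 (SE), which is 14.1-fold. Against the 3.18 ± 0.556 CPM of KO, D395A stood 3.91 ± 0.13 higher on the log2 scale. KO did not differ from WT in the test, at -0.09 ± 0.16 (adjusted p = 0.635, edgeR quasi-likelihood test over all genes), and this small value changed sign without KO replicate 1 (0.08) or without WT replicate 2 (0.03). In bulk RNA, more cells in the 2-cell-like state and more RNA per cell cannot be told apart.

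The 5 Usp17l copies together held 12.2 and 9.76 CPM in D395A, 2.05 and 2.79 CPM in KO, against 3.17 and 3.45 CPM in WT. Again both D395A libraries were above all others, and here both KO libraries were below both WT libraries. The D395A mean of 11.0 ± 1.74 CPM was 3.31-fold that of WT (3.31 ± 0.194 CPM), a log2 fold change of 1.73 ± 0.18. Against the KO mean of 2.42 ± 0.528 CPM the log2 fold change of D395A was 2.18 ± 0.19. KO against WT gave -0.45 ± 0.20 for this family (adjusted p = 0.0613, edgeR quasi-likelihood test), short of the 0.05 threshold. With 1 library left out this value ranged from -0.69 (without KO replicate 2) to -0.24.

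The proportion of the families to each other was read within each library. For each Usp17l count there were 4.16 and 4.58 Zscan4 counts in the D395A libraries, 1.36 and 1.28 in the KO libraries, and 0.984 and 1.06 in the WT libraries. These ratios lie within a library and do not depend on its scaling. The difference in ratio between the lines was not tested.

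**Figure D1:**
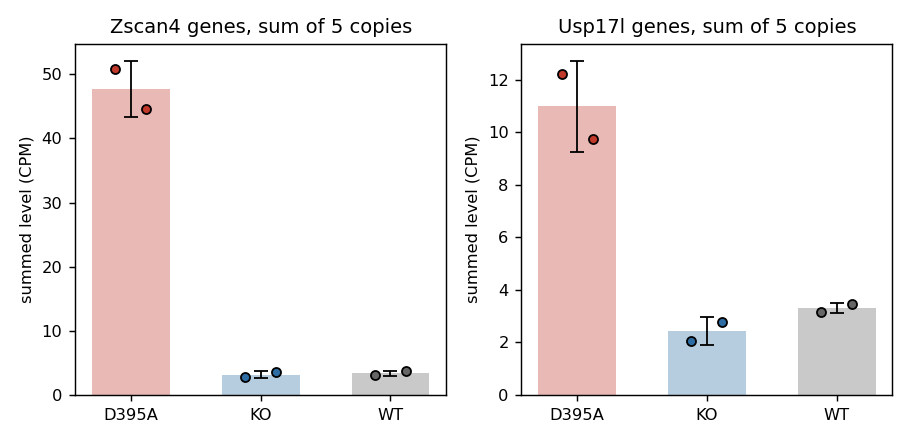
Summed level in CPM of the 5 Zscan4 copies (left) and the 5 Usp17l copies (right) in D395A, KO and WT; points are single libraries, bars are means and error bars are SD over 2 libraries. The D395A libraries stand at 50.9 and 44.7 CPM for Zscan4 and at 12.2 and 9.76 CPM for Usp17l, above all 4 other libraries in both families.

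Single copies were placed with the GENCODE M21 annotation (GRCm38, the same assembly as mm10). The Zscan4 members lie between bases 10794242 and 11402318 of chromosome 7, and the Usp17l members between bases 103249737 and 104862667 of the same chromosome. GENCODE lists Zscan4a as an unprocessed pseudogene and the 9 others as protein-coding, and none of the 10 shares exon bases with another gene on either strand. Transcripts of Zscan4 copies were 96.6% to 99.6% identical over their aligned bases, and those of Usp17l copies 89.9% to 97.8%. A read that matches several copies is not counted for any of them when only uniquely aligned reads are counted. The share of 100-base windows of a copy's longest transcript that occur in no other gene's transcript shows how much is unique among the annotated transcripts. Windows were not compared with the rest of the genome, and whether the copies in E14TG2a match this reference was not checked. The share was 70.4% for Zscan4d, 60.9% for Zscan4a, 27.2% for Zscan4c, 21.3% for Zscan4b and 10.5% for Zscan4f. In the other family it was 96.2% for Usp17la, 91.3% for Usp17le, 89.4% for Usp17lb, 67.7% for Usp17lc and 60.5% for Usp17ld. The level of a single copy, Zscan4f above all, is therefore uncertain, and reads shared by copies are missing from the sums as well.

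The edgeR filter on low counts kept 9 of the 10 members and dropped Usp17ld. Usp17lc and Zscan4b passed it through their D395A libraries, since none of their KO libraries and at most 1 of their WT libraries reached the cut-off of 0.279 CPM, so a difference was built into their passing. All 10 members had both D395A libraries above both WT libraries, as had 43.7% of all genes tested, and both above both KO libraries, as had 39.4%. Of the 9 tested, 9 were past the adjusted p of 0.05 and higher in D395A than in WT, where 36.3% of all genes were, and 9 were higher in D395A than in KO, where 26.5% were. Nothing is read from these counts, because the members were taken up for this pattern. The median log2 fold change of the 9 was 3.46 in D395A against WT, where that of all genes was 0.02, and 3.64 in D395A against KO, where that of all genes was 0.04.

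Ranks of copies by counted reads are uncertain, since 70.4% of windows were unique for Zscan4d and 10.5% for Zscan4f. By counted reads, Zscan4d had the highest level of all members in D395A. It held 16.3 and 13.8 CPM in the D395A libraries, 0.910 and 1.07 CPM in the KO libraries, and 0.492 and 1.05 CPM in the WT libraries. The WT libraries differed from each other, with 20 and 38 counts, and the KO values overlapped them at the upper end. The log2 fold change was 4.30 ± 0.25 against WT and 3.92 ± 0.24 against KO.

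Zscan4c, the copy best studied in stem cells, held 10.7 and 10.8 CPM in D395A, 0.796 and 0.778 CPM in KO, against 1.13 and 0.799 CPM in WT. Both KO libraries lay just below the lower WT library. The log2 fold change of D395A was 3.46 ± 0.21 against WT and 3.76 ± 0.22 against KO. Zscan4f held 12.3 and 9.54 CPM in D395A, 0.398 and 0.951 CPM in KO, against 0.860 and 1.07 CPM in WT. The KO libraries were on both sides of the lower WT library, and D395A stood above WT by 3.49 ± 0.29 and above KO by 4.0 ± 0.30 (log2).

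Zscan4a, the copy listed as a pseudogene, followed the coding copies. It held 7.62 and 6.40 CPM in D395A, 0.512 and 0.605 CPM in KO, against 0.615 and 0.496 CPM in WT. KO and WT coincided, and D395A was 3.64 ± 0.29 above WT and 3.64 ± 0.29 above KO (log2). By counted reads Zscan4b, with 21.3% of its windows unique against 60.9% for Zscan4a, was the lowest of the family. It held 4.004 and 4.19 CPM in D395A, 0.171 and 0.173 CPM in KO, against 0.0246 and 0.248 CPM in WT. Its WT values rest on 1 and 9 counts, so its log2 fold change of 4.92 ± 0.60 against WT, the highest of the 9, is also the least certain in this family. Against KO it was 4.55 ± 0.59.

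**Figure D2:**
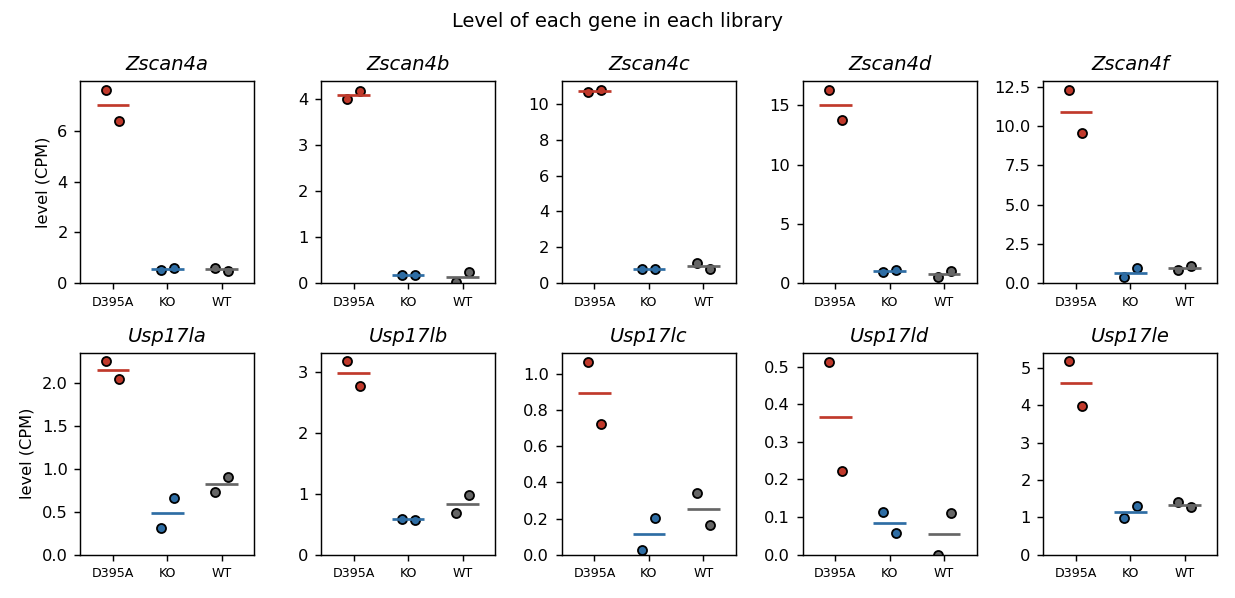
Level in CPM of each of the 10 genes in each library, with the groups D395A, KO and WT from left to right; points are libraries, horizontal lines are group means, and each panel has its own linear axis from 0. Every panel shows both D395A points above the other 4, from 16.3 and 13.8 CPM for Zscan4d to 0.511 and 0.222 CPM for Usp17ld.

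Usp17le, known as Dub3, had the highest counted level of the Usp17l copies. It held 5.20 and 3.99 CPM in D395A, 0.995 and 1.30 CPM in KO, against 1.40 and 1.27 CPM in WT. D395A was clear of the other groups, which overlapped, and its log2 fold change was 1.77 ± 0.29 against WT and 1.99 ± 0.29 against KO. Usp17lb held 3.19 and 2.77 CPM in D395A, 0.597 and 0.576 CPM in KO, against 0.688 and 0.992 CPM in WT. Here the 3 groups did not overlap, and D395A stood 1.83 ± 0.37 above WT and 2.34 ± 0.38 above KO (log2).

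Usp17la held 2.26 and 2.05 CPM in D395A, 0.313 and 0.663 CPM in KO, against 0.738 and 0.909 CPM in WT. Its groups did not overlap either, and its log2 fold change of 1.38 ± 0.44 against WT was the smallest of the 9 members. Usp17lc held 1.06 and 0.721 CPM in D395A, 0.0284 and 0.202 CPM in KO, against 0.344 and 0.165 CPM in WT. The KO values rest on 1 and 7 counts, and the log2 fold changes of D395A were 1.77 ± 0.73 against WT and 2.91 ± 0.81 against KO. Usp17ld, which was not tested, had 12 and 8 counts in D395A, 4 and 2 counts in KO, and 0 and 4 counts in WT.

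Some calls among the Usp17l copies with fewer counts were borderline, and were lost with another tool or with a library left out. The members were taken up with their level in D395A known, and Usp17lc passed the filter through its D395A libraries. Calls kept or lost are therefore a description, and nothing is read from them. Usp17lc in D395A against WT no longer passed with DESeq2 (1.78), without D395A replicate 1 (1.48), without D395A replicate 2 (2.04), without WT replicate 1 (2.39) or without WT replicate 2 (1.35), all as log2 fold changes. Usp17la no longer passed without WT replicate 1 (1.23) or without WT replicate 2 (1.54). In D395A against KO, Usp17lc no longer passed without D395A replicate 1 (2.62) or without KO replicate 1 (2.10).

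In KO against WT, 0 of the 9 tested members passed the edgeR test in either direction, whereas 33.6% of all genes were called higher and 32.6% lower. DESeq2 and limma-voom also called 0, and 0 members had an unadjusted p under 0.05 in the edgeR fit. The log2 fold changes ran from -1.14 ± 0.86 for Usp17lc to 0.38 ± 0.32 for Zscan4d, with a median of -0.30 (0.01 over all genes). All 4 tested Usp17l copies had negative values, and the 5 Zscan4 copies had values of both signs. Usp17la, Usp17lb and Zscan4c had both KO libraries below both WT libraries, 3 of the 10 members, against 41.7% of all genes tested, and 0 had both above, against 42.2%. Single libraries decided calls here. Without WT replicate 2, Zscan4d (1.00, adjusted p = 0.0190) and Zscan4b (2.63, adjusted p = 0.0302) passed as higher in KO, and without KO replicate 2, Zscan4f (-1.27, adjusted p = 0.0108) and Usp17la (-1.38, adjusted p = 0.0467) passed as lower. Members with so few counts in KO and WT leave wide intervals, and a missed threshold does not show that the lines were alike.

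**Figure D3:**
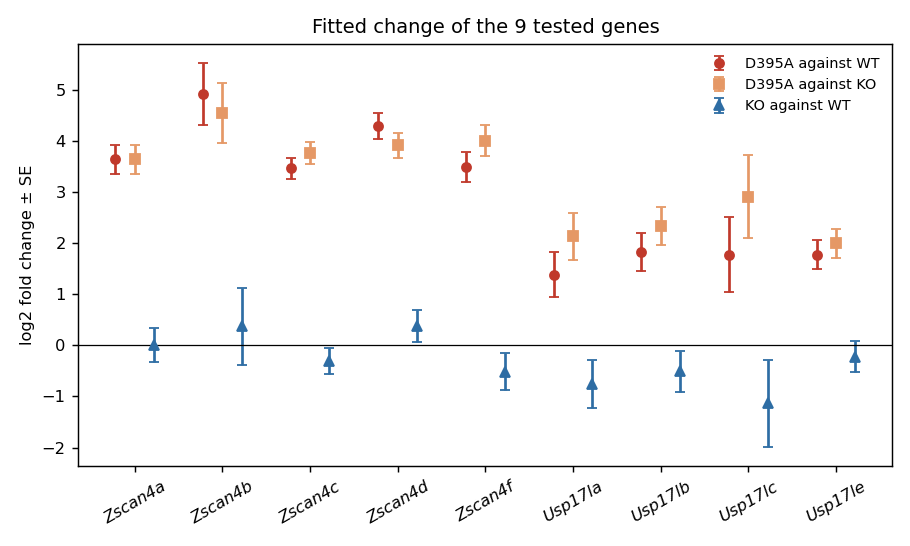
Fitted log2 fold change with its SE for the 9 tested genes, for D395A against WT (circles), D395A against KO (squares) and KO against WT (triangles). The Zscan4 copies lie between 3.46 and 4.92 and the Usp17l copies between 1.38 and 1.83 for D395A against WT, while KO against WT lies between -1.14 and 0.38. The comparisons share libraries.

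Per kilobase of annotated exon, which allows levels of different genes to be set side by side, the order in D395A was Zscan4d (6.61 ± 0.783 CPM per kb), Zscan4f (5.57 ± 0.985), Zscan4c (4.72 ± 0.0297), Zscan4a (3.08 ± 0.378), Usp17le (2.31 ± 0.428), Zscan4b (2.27 ± 0.0719), Usp17lb (1.91 ± 0.191), Usp17la (0.811 ± 0.0547), Usp17lc (0.364 ± 0.0991) and Usp17ld (0.184 ± 0.103). Among neighbours in this order, Zscan4d and Zscan4f, Zscan4f and Zscan4c, Zscan4a and Usp17le, Usp17le and Zscan4b, and Usp17lc and Usp17ld differed by less than the sum of their SDs. In WT the highest means were those of Usp17le at 0.672 ± 0.0475, Usp17lb at 0.538 ± 0.138 and Zscan4f at 0.494 ± 0.0774 CPM per kb, and in KO those of Usp17le at 0.577 ± 0.107 and Zscan4d at 0.435 ± 0.0486 CPM per kb. Neighbours among these differed by less than the sum of their SDs, so no order is read from them. All these levels carry the limit that windows shared between copies give no unique reads.

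The share of each copy in its family's counts was compared by library. Zscan4d made up 32.0% (95% Wilson interval 29.4 to 34.7) and 30.8% (28.6 to 33.1) of Zscan4 counts in D395A, 32.7% (24.2 to 42.4) and 29.8% (22.5 to 38.4) in KO, and 15.7% (10.4 to 23.1) and 28.6% (21.6 to 36.8) in WT. The WT replicate 1 share was the low one, and the intervals of the other 5 libraries overlapped one another. The WT replicate 1 interval overlapped those of KO replicate 2 and WT replicate 2. It lay below those of KO replicate 1 and both D395A libraries. Zscan4b made up 7.87% and 9.37% in D395A, 6.12% and 4.84% in KO, and 0.787% and 6.77% in WT. Usp17le made up 42.5% and 40.9% of Usp17l counts in D395A, 48.6% and 46.4% in KO, and 44.2% and 36.8% in WT. These intervals cover counting error only, and shares were not tested between groups.

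**Figure D4:**
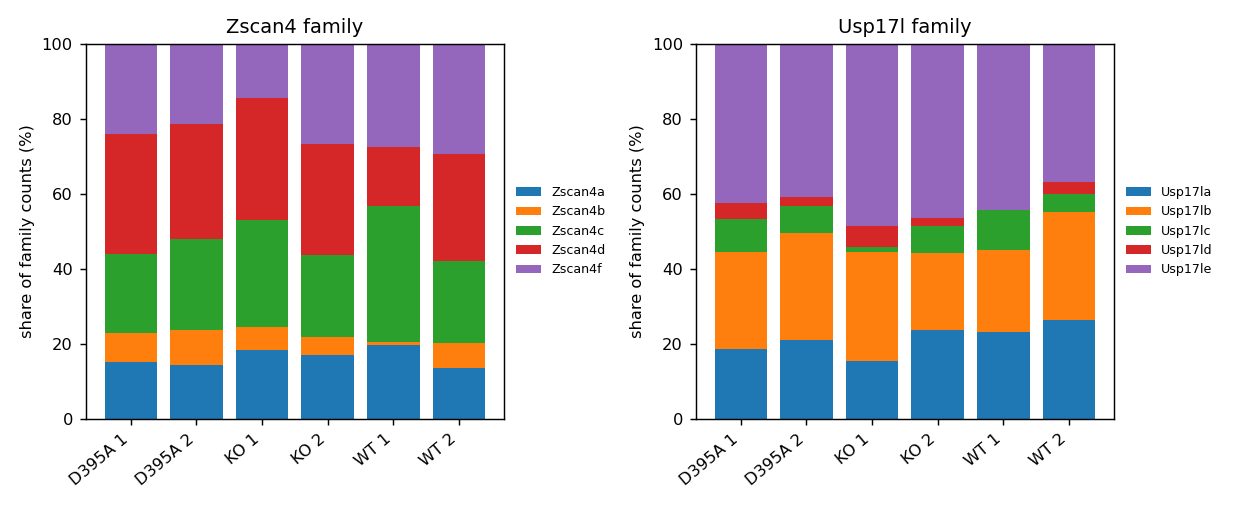
Share in percent of each copy in the counts of its family, per library, for Zscan4 (left) and Usp17l (right), from the D395A libraries to the KO and WT libraries. Zscan4d takes 32.0% and 30.8% in D395A and 15.7% in WT replicate 1, and Usp17le takes between 36.8% and 48.6% of Usp17l counts in all libraries.

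Promoter sequences from RefSeq (GRCm38.p6) were available for 8 members: 4 Zscan4 and 4 Usp17l copies. They are reference sequences, and their match to the E14TG2a line was not checked. Upstream sequences were 94.7% to 99.6% identical over aligned bases among the Zscan4 copies, 90.3% to 97.3% among the Usp17l copies, and 58.4% to 68.6% between a Zscan4 and a Usp17l copy. The 250 bases before the start that RefSeq annotates are shown for examples of each family. These are Zscan4d, the copy with the highest counted level in D395A, Zscan4c, and a pair of Usp17l copies. Capitals mark TATAAA, GGTCAGACTGACC (a match to the oestrogen response element, an inverted repeat with a 3-base gap) and TGATTCAAT (the start of the DUX motif). Zscan4c is at chr7:11005495-11005744 on the plus strand, Zscan4d at chr7:11166149-11166398 on the minus strand, Usp17lb at chr7:104842584-104842833 on the minus strand and Usp17la at chr7:104856766-104857015 on the plus strand, each written 5′ to 3′ towards the gene.
Zscan4c: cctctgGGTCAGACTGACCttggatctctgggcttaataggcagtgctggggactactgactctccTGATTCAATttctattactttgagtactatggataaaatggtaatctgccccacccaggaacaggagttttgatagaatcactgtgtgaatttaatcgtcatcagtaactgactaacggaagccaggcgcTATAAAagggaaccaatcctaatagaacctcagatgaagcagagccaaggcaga
Zscan4d: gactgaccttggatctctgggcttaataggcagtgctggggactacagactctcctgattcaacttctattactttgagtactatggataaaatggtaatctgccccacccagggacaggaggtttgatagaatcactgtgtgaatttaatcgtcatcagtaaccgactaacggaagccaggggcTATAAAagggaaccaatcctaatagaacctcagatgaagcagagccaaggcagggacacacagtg
Usp17lb: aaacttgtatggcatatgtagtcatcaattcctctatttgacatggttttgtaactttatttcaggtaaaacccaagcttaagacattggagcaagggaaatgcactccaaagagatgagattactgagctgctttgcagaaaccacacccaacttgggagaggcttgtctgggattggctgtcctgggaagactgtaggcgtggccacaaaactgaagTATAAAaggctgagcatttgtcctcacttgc
Usp17la: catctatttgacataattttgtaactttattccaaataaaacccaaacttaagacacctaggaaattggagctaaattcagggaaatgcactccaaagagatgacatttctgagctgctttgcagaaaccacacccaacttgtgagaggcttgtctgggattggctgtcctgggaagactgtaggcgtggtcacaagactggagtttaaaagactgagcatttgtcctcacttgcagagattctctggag

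Motifs were searched on both strands of these windows, as a description of letters and not of bound sites, and were chosen after the sequences were seen. TATAAA was present in 4 of 4 Zscan4 and 3 of 4 Usp17l windows, and in 12.4% of 32851 promoter windows of the same length. In Zscan4b and Zscan4f it began at base -31 before the start, in Zscan4c at -54 and in Zscan4d at -65. The inverted repeat with any 3 bases in its gap was present in 3 of 4 Zscan4 windows, 0 of 4 Usp17l windows and 0.0639% of all windows. The Zscan4d window opens inside the matching stretch, so its missing match says only where the window begins. TGATTCAAT was found in Zscan4c and Zscan4f (2 of 4 Zscan4 windows, 0 of 4 Usp17l windows, 0.11% of all windows). The full DUX motif, which is longer and allows any base at its centre, was in 0 of the 8 windows and in 0.0304% of all windows. CACACCC, a box bound by KLF factors, was in 4 of 4 Usp17l windows, 0 of 4 Zscan4 windows and 6.93% of all windows. CCAAT was in all 8 windows and in 33.8% of all windows, and TGCACAC, the motif of ZSCAN4 itself, was in 0 of the 8 and 3.67% of all windows.

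Most other genes around the clusters had no counts, which in these uniquely aligned reads does not show that they were silent. Of 29 other genes in the table within 1 Mb of the Zscan4 members, 27 had 0 counts in all 6 libraries, and the 1 that could be tested was lower in D395A than in WT (-0.32) and lower in KO than in WT (-0.48). Of 166 such genes around the Usp17l members, 122 had 0 counts throughout. Among the 28 that could be tested, 15 were higher and 6 lower in D395A against WT (36.3% and 34.0% of all genes), with a median of 0.34. In KO against WT, 11 were higher and 4 lower (33.6% and 32.6% of all genes), with a median of 0.32. Over the 1233 other tested genes of chromosome 7 the medians were 0.09 for D395A and 0.14 for KO.

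Relatives of the families outside the clusters had smaller median changes, and their counts stand beside 36.3% of all genes higher and 34.0% lower in D395A, and 33.6% higher and 32.6% lower in KO. Of 11 other Zscan genes tested, 8 were higher and 2 lower in D395A against WT (median 0.28), and 6 were higher and 2 lower in KO against WT (median 0.26). The largest log2 changes each way in D395A were 0.93 for Zscan29 and 0.89 for Zscan2, and -3.93 for Zscan5b and -0.22 for Zscan26. In KO they were 0.82 for Zscan29 and 0.71 for Zscan2, and -0.24 for Zscan18 and -0.21 for Zscan26. Of 49 other Usp genes tested, 14 were higher and 18 lower in D395A against WT (median -0.04), and 12 were higher and 23 lower in KO against WT (median -0.08). Here the largest changes each way in D395A were 1.41 for Usp9y and 1.21 for Usp25, and -7.45 for Usp26 and -2.23 for Usp50. In KO they were 5.13 for Usp9y and 1.16 for Usp2, and -6.83 for Usp26 and -2.69 for Usp29.

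Other genes of the 2-cell-like state were read from a list of 50 symbols, 47 of them in the table, of which 22 could be tested and 10 had 0 counts everywhere. In D395A against WT, 11 of the 22 were higher and 5 lower (36.3% and 34.0% of all genes), with a median of 1.42. In KO against WT, 3 were higher and 6 lower (33.6% and 32.6% of all genes), with a median of -0.53. Between the mutant lines, 10 were higher and 4 lower in D395A than in KO (26.5% and 23.8% of all genes). Arg2, Gm2022, Pramef25 and Abcb5, named here for this reason, passed the filter on low counts only through their D395A libraries. Pramel6 and Pramel7 passed it only through their WT libraries. A difference was thus built into the passing of these genes, and they enter the counts and medians above. The list was compiled with earlier results of these data known, so its direction is no independent evidence.

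Of this list, 7 tested genes carry only a Gm number, and 6 of them passed as higher in D395A than in WT: Gm5662, Gm8300, Gm2016 and Gm2022 on chromosome 12, Gm21761 on chromosome 13, and Gm12794 on chromosome 4. Those on chromosome 12 lie close together, between bases 87514316 and 88274500. How far their reads can be told apart was not checked, so they may not be separate observations. The grouping, and the names other than Gm5662 and Gm8300, were chosen after the values were seen. Their changes in D395A are therefore a description, given without a p-value, and nothing is read from the number that passed. Gm5662 held 6.69 and 5.05 CPM in D395A, 0.284 and 0.720 CPM in KO, against 0.639 and 1.27 CPM in WT. Its log2 fold change in D395A against WT was 2.62 ± 0.40. Gm8300 held 2.73 and 2.97 CPM in D395A, 0.256 and 0.403 CPM in KO, against 0.910 and 0.937 CPM in WT. It was higher in D395A than in WT (1.62 ± 0.37) and lower in KO (-1.48 ± 0.42, edgeR adjusted p = 0.00820). The log2 fold changes of the 7 in D395A ran from 1.11 ± 0.55 for Gm13119, which did not pass, to the 2.62 of Gm5662, with a median of 2.10. In KO, 2 of the 7 passed as lower, Gm8300 and Gm21761, and none as higher.

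Some other genes of the list went the opposite way in D395A or moved in both lines. Pramel6, a gene of the inner cell mass and of naive stem cells, had 0 counts in both D395A libraries, 10 and 1 counts in KO, and 289 and 239 counts in WT, so that D395A was at least 136-fold lower than WT taking 3 counts, summed over the group, as the floor. Calcoco2, an autophagy receptor, held 5.45 and 4.74 CPM in D395A, 50.3 and 47.5 CPM in KO, against 50.6 and 43.5 CPM in WT, a log2 change in D395A of -3.22 ± 0.11 against WT (adjusted p = 9e-11). Snai1, a repressor of epithelial genes, rose in both lines, by 2.49 ± 0.22 in D395A and 3.74 ± 0.21 in KO (adjusted p = 5.6e-07 and 1e-08).

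Markers nearer to the start of the 2-cell programme were scarce. Dux, its driver, is listed at 0 counts in all 6 libraries. Dux lies in a tandem repeat in the mouse genome, and reads that align to several places are not in the gene counts, so 0 here is no measure of its RNA. Zfp352, a zinc finger gene of the 2-cell stage, had 2 and 3 counts in D395A, 3 and 1 counts in KO, and 5 and 6 counts in WT. Tcstv3 had 6 and 8 counts in D395A, 2 and 0 counts in KO, and 3 and 1 counts in WT, and Tcstv1 had 0 counts throughout. None of these was deep enough to be tested.

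**Figure D5:**
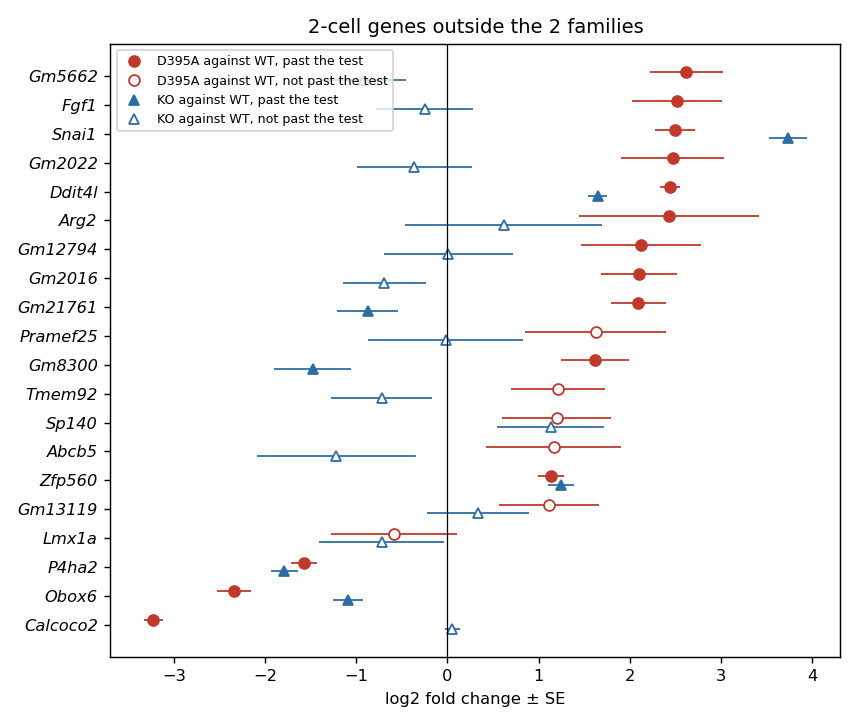
Fitted log2 fold change with its SE for 20 tested 2-cell genes outside the families, for D395A against WT (circles) and KO against WT (triangles), with filled marks past the adjusted p of 0.05. Arg2, Gm2022, Pramef25 and Abcb5 passed the filter on low counts only through D395A, and the Gm genes were grouped after the values were seen. Nothing is read from whether the D395A marks of these genes are filled. Pramel6 and Pramel7 are left out because D395A held 0 and 3 counts of them; Gm5662 lies at 2.62 in D395A and Calcoco2 at -3.22.

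Of 16 tested genes listed as activators of the Zscan4 programme, 5 were higher and 9 lower in D395A than in WT (36.3% and 34.0% of all genes). Their median was -0.28. The list holds both Trp53 and its inhibitor Mdm2, named only for this reason. It thus mixes genes of unlike effect, and neither its counts nor its median measure activation. In KO, 5 were higher and 8 lower than in WT (33.6% and 32.6% of all genes), with a median of -0.14. DPPA2 and DPPA4, the pair of chromatin proteins that activates Dux, were slightly lower at the RNA level, with Dppa2 at -0.28 ± 0.08 in D395A and -0.23 ± 0.07 in KO (adjusted p = 0.00526 and 0.0161). Dppa4 stood at -0.31 ± 0.07 in D395A and -0.40 ± 0.07 in KO (adjusted p = 0.00156 and 0.000191). Nelfa, a maternal factor, was lower in both (-0.41 ± 0.07 and -0.59 ± 0.07). Tbx3, a factor of naive cells that raises Zscan4 when overexpressed, held 17.7 and 19.2 CPM in D395A, 412 and 380 CPM in KO, against 283 and 282 CPM in WT, falling by 3.93 ± 0.08 (log2) in D395A. Tet2, which oxidises methylated DNA, held 80.5 and 91.2 CPM in D395A, 517 and 479 CPM in KO, against 356 and 370 CPM in WT. The maternal gene Dppa3 rose in D395A and fell in KO, with 83.6 and 69.0 CPM in D395A, 2.53 and 2.65 CPM in KO, against 25.2 and 27.6 CPM in WT. Gata3 was higher in both lines (3.07 ± 0.56 in D395A and 2.86 ± 0.56 in KO). Smarca5, a chromatin remodeller, was lower in both (-1.23 ± 0.06 in D395A and -1.11 ± 0.06 in KO), as was Trp53, which encodes p53 (-0.95 ± 0.07 in D395A and -1.01 ± 0.07 in KO).

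Of 37 genes listed as repressors of the 2-cell-like state, 12 were higher and 18 lower in D395A against WT (36.3% and 34.0% of all genes). Their median was -0.11. In KO against WT, 10 were higher and 20 lower (33.6% and 32.6% of all genes), with a median of -0.17. The part of each listed gene in these cells was not tested, so neither counts nor medians measure repression. Trim28, the corepressor of retroelements, held 716 and 768 CPM in D395A, 800 and 861 CPM in KO, against 1029.9 and 968 CPM in WT, a log2 change of -0.43 ± 0.07 in D395A and -0.27 ± 0.07 in KO. Rif1 fell by 0.59 ± 0.07 in D395A (adjusted p = 6.1e-06) and by 0.18 ± 0.07 in KO (adjusted p = 0.0351). Sumo2, a modifier of repressor complexes, fell by 1.26 ± 0.06 in D395A, where Ring1, a Polycomb subunit, and the DNA methyltransferases Dnmt3a and Dnmt3b rose by 1.09 ± 0.14, 0.97 ± 0.07 and 0.83 ± 0.07. Lin28a, an RNA-binding protein whose loss is known to raise 2-cell genes, held 128 and 148 CPM in D395A, 7.51 and 9.42 CPM in KO, against 86.1 and 75.0 CPM in WT. In KO, Cbx3, a heterochromatin protein, and Myc were lower (-1.44 ± 0.06 and -1.16 ± 0.29) and Mycn was higher (0.94 ± 0.06). In D395A, Cbx3 and Myc did not pass (-0.11 ± 0.06 and 0.26 ± 0.28), and Mycn was higher (0.50 ± 0.07).

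Telomere genes were read because ZSCAN4 acts on telomeres. Of 28 tested, 7 were higher and 17 lower in D395A against WT (median -0.26; 36.3% and 34.0% of all genes), and 8 were higher and 16 lower in KO against WT (median -0.21; 33.6% and 32.6% of all genes). Both comparisons use the same WT libraries. Smc1b, a meiotic cohesin subunit, held 0.937 and 0.693 CPM in D395A, 1.08 and 0.922 CPM in KO, against 46.0 and 53.4 CPM in WT. Dmc1, the meiotic recombinase, changed by -1.35 ± 0.16 in D395A and -1.35 ± 0.16 in KO. Tert, the catalytic subunit of telomerase, rose in KO (1.39 ± 0.09, adjusted p = 2.6e-08) and stood at -0.19 ± 0.09 in D395A (adjusted p = 0.0941). Wrn, a RecQ helicase, fell by 0.72 ± 0.09 in D395A and by 1.73 ± 0.09 in KO. Rad50, of the double-strand break repair complex, fell by 1.04 ± 0.06 in D395A and by 0.85 ± 0.06 in KO, and Terf1, a telomere-binding protein, fell by 0.90 ± 0.06 in D395A and by 0.75 ± 0.06 in KO.

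The genes whose profile over the 6 libraries was most like each family were found by the root mean square difference of centred log2 CPM, over 15654 genes. For the Zscan4 sum they were Cd24a (0.140), Sema3a (0.206), Col3a1 (0.268), Sox21 (0.288) and Hoxb1 (0.289). Cd24a held 238 and 222 CPM in D395A, 17.4 and 20.7 CPM in KO, against 18.2 and 18.5 CPM in WT. For the Usp17l sum they were Epha1 (0.184), Sfrp2 (0.206), Fam171b (0.221), Tmem47 (0.228) and Ildr2 (0.229), and Epha1 held 5.79 and 5.52 CPM in D395A, 1.02 and 1.41 CPM in KO, against 2.14 and 1.57 CPM in WT. The families differed from each other by 0.913 on this measure. Col3a1 and Hoxb1 had 0 counts in the KO and WT libraries and Sema3a at most 0.0576 CPM there. A prior count of 2 was added before taking log2. The likeness of these genes therefore rests on D395A and on that constant, and so does their place in the order.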

How the data were processed

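Total RNA after rRNA removal was sequenced from 6 libraries of E14TG2a cells, 2 per genotype, with a directional kit, per the labels' protocols. The authors deposited whole-number counts of reads per gene. Trimmomatic 0.36, STAR 2.7, HTSeq 0.11.2 and the build mm10 are named in the submitters' processing notes; for the strand setting and the gene annotation, no value is given in the sources used here. The HTSeq summary lines (29.0% to 44.2% of each file) were left out of library sizes. Columns not mapped to a sample numbered 0.

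The members and all gene lists were chosen with earlier results of these data known. Counts were fitted with the quasi-likelihood test of edgeR 4.0.16 (R 4.3.3; filterByExpr, TMM scaling, all 6 libraries in one fit with 3 residual degrees of freedom), with Benjamini-Hochberg adjustment over 15663 genes and a threshold of 0.05. For family sums, the copies were replaced in the whole table by 1 row with their summed count (15656 rows tested). The biological coefficient of variation was 6.00%. The steps were tested on simulated data. Alternatives were DESeq2 1.42.0, limma-voom (limma 3.58.1), other scalings and filters, a robust fit, the replicate block and leaving out each library. Promoters and transcripts were compared with Biopython 1.88. All members and the targeted gene are named. From each list, the rule allowed the 4 largest changes per comparison past the threshold and a short list of known regulators, and not all of these are named; of the other Zscan and Usp genes it took the 2 largest changes each way. Genes named beyond this are said to be so. For a single library's share, 95% Wilson intervals cover counting error only, and the floor for a count of 0 is 3 counts.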

Additional observations from a re-analysis of the deposited data

Results flagged for a closer look

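Results are given here where D395A and KO, set against the same WT libraries, passed the edgeR adjusted p of 0.05 against each other. Values are log2 fold changes of D395A against KO. Gata3, Dppa2, Dppa4, Trim28, Smc1b and Dmc1 did not pass and are left out, as is Usp17ld, which was not tested. Not every named gene that passed is listed. For the Zscan4 and Usp17l sums this difference was 3.91 and 2.18. For single copies it was 3.64 for Zscan4a, 4.55 for Zscan4b, 3.76 for Zscan4c, 3.92 for Zscan4d and 4.0 for Zscan4f. It was 2.13 for Usp17la, 2.34 for Usp17lb, 2.91 for Usp17lc and 1.99 for Usp17le. The members were taken up with this pattern known and are listed here by that threshold, so nothing is read from their passing.

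Among other 2-cell genes the difference was 3.53 for Gm5662, 3.10 for Gm8300, 2.79 for Gm2016, 2.83 for Gm2022, 2.97 for Gm21761 and 2.12 for Gm12794. These Gm genes were grouped after the values were seen, so nothing is read from their passing. For Calcoco2 the difference was -3.28 and for Snai1 -1.24, both past the edgeR threshold. Among genes of the activator list it was -4.42 for Tbx3, -2.53 for Tet2, 4.87 for Dppa3 and 0.18 for Nelfa. Among genes of the repressor list it was -0.67 for Sumo2, 0.58 for Ring1, 0.69 for Dnmt3a, 0.67 for Dnmt3b, 4.03 for Lin28a and -0.41 for Rif1. Among telomere genes it was -1.58 for Tert and 1.01 for Wrn.

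Reads aligned to several places enter no gene count. They made up 6.42% and 6.02% of the file totals in D395A and 5.99% and 6.18% in KO, above the 5.34% and 5.40% of WT. Reads of repeated copies fall into this class, and its part in the member levels was not tested.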

How the results depend on the processing

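Across the settings other than leaving out a library, the Zscan4 sum stayed at 3.8 to 3.81 (log2) for D395A against WT and 3.87 to 3.91 for D395A against KO, and the Usp17l sum at 1.69 to 1.73 and 2.14 to 2.18. Leaving out 1 library moved them to 3.69 to 3.93 and 3.73 to 4.09 for Zscan4, and to 1.56 to 1.88 and 1.96 to 2.41 for Usp17l. In KO against WT the Usp17l sum passed the threshold with no filter on low counts (-0.44, adjusted p = 0.0391) and with the robust fit (-0.45, adjusted p = 0.0488), and ranged from -0.69 to -0.24 with a library left out. The Zscan4 sum ranged there from -0.28 to 0.083 (without KO replicate 1), with 0.03 without WT replicate 2. Without 1 library, Zscan4a ranged from -0.14 to 0.17 (-0.12 without KO replicate 2), Zscan4b from -0.52 to 2.63 and Zscan4d from -0.084 to 1.00, and the count of members called ranged from 0 to 2 in each direction. The 2-cell genes outside the families called higher in D395A than in KO numbered 6 with a mean of at least 1 CPM, against 10. Replicate numbers did not pair the libraries (correlations of 0.08, -0.02 and 0.01 over 12734 genes). With the replicate block the Usp17l sum in KO against WT was -0.45 (adjusted p = 0.0685), Usp17lc in D395A against WT no longer passed (1.78), and 10843 genes were called in D395A against WT, against 11011. The causes were not tested. Depth limits the copies with the fewest counts most, since Usp17ld, Usp17lc and Zscan4b rest on few counts in KO and WT.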
